A study of Cucumis sativus with 4 samples.

Results

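The genes described here are 196 of the 17480 genes listed for female flower buds of cucumber (Cucumis sativus), chosen because they read lower in plants of the genotype round leaf (rl) than in wild type (WT). RNA was sequenced from 2 rl libraries (replicates 1 and 2) and 2 WT libraries (replicates 1 and 2), 4 in all. Both genotypes carry the source name cucumber 649 and the cultivar label Southern China type, both were grown in a greenhouse and left untreated, and the labels name no further allele, agent, plant age or bud stage. How many plants gave each library is not in the labels, nor is it stated that replicates are different plants; the spread between libraries, and any p built on it, may thus be technical only.

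A gene was taken if its mean over the WT libraries was at least 5 counts per 1000000 reads (CPM), if that mean was at least 2 times the mean over the rl libraries, and if both rl values lay below both WT values. All of this was met by 1.34% of the 14654 genes that had 5 CPM or more in WT. A further 10 identifiers were left out by name. Of these 7 are in the table, and 0 met the conditions. The choice rests on the rl and WT values themselves, so every difference between the genotypes given here is a description and none is a test. All 196 genes also had at least 1 CPM in 2 libraries, the filter used for the fits, as did all 17480 listed genes. In the opposite direction, the mirrored conditions (at least 5 CPM in rl) gave 141 genes.

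The title of the series ties round leaf to CsPID, named after PINOID. In Arabidopsis PINOID is a protein kinase that phosphorylates PIN auxin efflux carriers and so helps to set the direction in which auxin is moved between cells. Local auxin maxima made by this transport mark where leaves and floral organs start, and Arabidopsis pinoid mutants form few or misshapen floral organs. Which of the 196 genes act in this pathway is not known from the data used here: the table gives identifiers only, and 0 of the 196 matched the RefSeq gene table of cucumber. No name, function or sequence is therefore given for any of them, and marker genes of tissues in the bud were not examined. In a whole bud, fewer cells of a type and less RNA per cell cannot be told apart.

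Most of the reductions were moderate, and a small number of transcripts were nearly missing from rl buds. Fold values here are the mean CPM of WT divided by that of rl, so a larger value means lower in rl. The median gene was 2.89-fold lower in rl, which left 34.6% of its WT level, and the middle of the distribution ran from 2.27-fold (lower quartile) to 4.07-fold (upper quartile). There were 103 genes under 3-fold, 80 genes from 3-fold to under 10-fold, and 13 genes at 10-fold or more, of which 6 were at 20-fold or more. In rl the mean was under 1 CPM for 10 genes. On the log2(CPM + 1) scale the median difference (rl minus WT) over the 196 genes was -1.38, against -0.01 over all genes.

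Together the 196 genes took 0.255% of the reads in rl replicate 1 and 0.293% in rl replicate 2, against 0.953% in WT replicate 1 and 0.679% in WT replicate 2. The 95% Wilson intervals, which cover counting error only, ran from 0.253% to 0.257% and 0.290% to 0.295% in rl, and from 0.949% to 0.958% and 0.676% to 0.683% in WT. Summed CPM was 2552 and 2927 in the rl libraries and 9533 and 6794 in the WT libraries. The falls in CPM were uneven. The 8 largest made up 28.2% of the summed fall, and the median fall was 12.2 CPM against a highest of 331 CPM. The depth was alike in all libraries, from 17549219 to 18345095 reads on the listed genes.

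**Figure D1:**
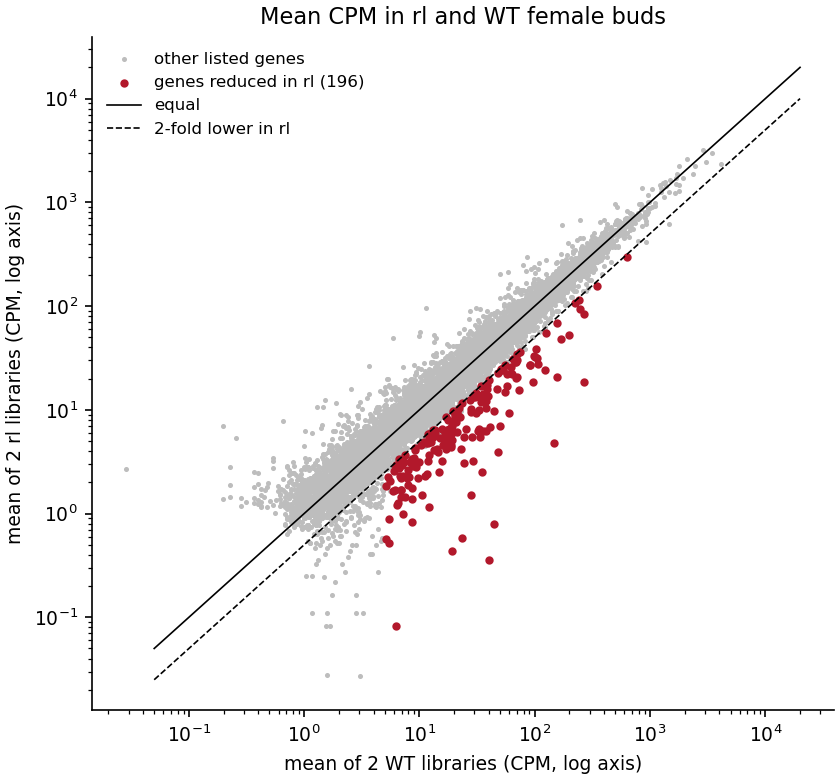
Mean CPM over the 2 rl libraries (vertical, log axis) against mean CPM over the 2 WT libraries (horizontal, log axis), 1 point per gene listed with reads in both genotypes. The 196 chosen genes (red) lie under the dashed line of a 2-fold reduction by construction, most of them close to it, and 6 lie at 20-fold or more below the line of equality.

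Csa6G526550 had the largest fold of the 196. It read 0.436 and 0.276 CPM in the rl libraries (8 and 5 reads), against 49.2 and 31.5 CPM in the WT libraries (876 and 552 reads), which is 113-fold lower in rl. Both rl libraries were close to the limit of detection while both WT libraries were well covered. Csa3G207390 read 0.872 and 0.718 CPM in rl, against 68.9 and 19.8 CPM in WT, or 55.8-fold lower. Here the rl libraries were alike and the WT libraries were 3.47-fold apart, with replicate 1 the higher.

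Csa3G874350 read 0.545 and 0.332 CPM in rl and 20.8 and 17.3 CPM in WT, 43.4-fold lower in rl. Csa1G629020 read 0.382 and 0.774 CPM in rl and 26.9 and 19.8 CPM in WT, 40.4-fold lower in rl. For both of these genes the lowest WT value was over 25 times the highest rl value, so the groups stood far apart. Csa1G077140 was listed at 0 reads in rl replicate 1 and at 3 reads (0.166 CPM) in rl replicate 2, against 138 and 83 reads in WT (7.76 and 4.73 CPM). The ratio of WT to rl from the pooled reads is 76.0, with an exact 95% interval of 25.7 to 371 that covers counting error only.

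Csa3G127770 read 4.91 and 4.75 CPM in rl, against 170.1 and 121 CPM in WT, 30.1-fold lower. Unlike the genes above it remained clearly detected in rl, with 90 and 86 reads. Csa3G782630 read 2.34 and 0.663 CPM in rl and 46.2 and 10.1 CPM in WT, 18.7-fold lower in rl. Csa1G589710 read 24.3 and 13.1 CPM in rl and 421 and 112 CPM in WT, 14.3-fold lower in rl. In Csa3G782630 and Csa1G589710 the WT libraries were 4.55-fold and 3.77-fold apart, although the groups did not overlap.

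**Figure D2:**
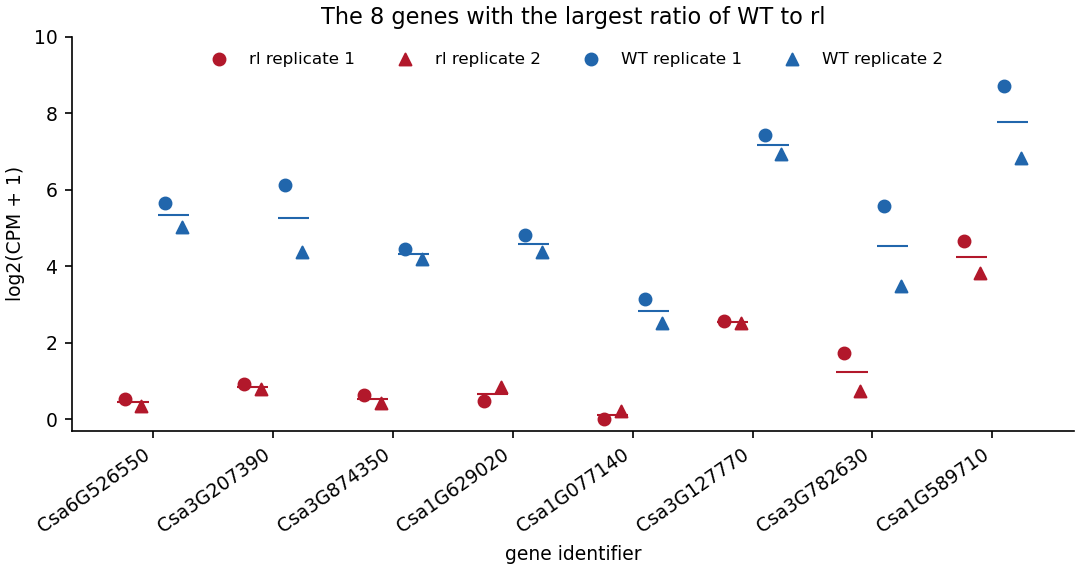
Expression as log2(CPM + 1) in each library for the 8 genes with the largest fold between WT and rl, with rl libraries in red and WT libraries in blue, circles for replicate 1, triangles for replicate 2 and short lines for the mean of each genotype (n = 2). All red points lie below all blue points of the same gene, and WT replicate 1 is the higher WT library for each of the 8 genes.

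The 8 chosen genes with most reads in WT, from 196 CPM upwards, were 2.09-fold to 14.3-fold lower in rl. CPM is not divided by gene length, so this order is one of reads and not of transcript numbers. Csa3G848310 read 167 and 431 CPM in rl, against 694 and 566 CPM in WT, 2.11-fold lower in rl. Its rl libraries were further apart than its WT libraries, and rl replicate 2 came near to the WT values. Csa5G636450 was steady within each genotype, with 148 and 162 CPM in rl and 359 and 337 CPM in WT, 2.24-fold lower. Csa6G449250 read 40.1 and 64.5 CPM in rl and 212 and 181 CPM in WT, 3.76-fold lower.

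Csa6G095270 read 104 and 109 CPM in rl and 264 and 181 CPM in WT, 2.09-fold lower. Csa3G011620 read 115 and 114 CPM in rl and 343 and 137 CPM in WT. Its fold of 2.10 came mostly from WT replicate 1, since WT replicate 2 was only 1.19 times the higher rl library. Csa5G383850 varied in both genotypes, with 130 and 36.4 CPM in rl and 329 and 209 CPM in WT, 3.24-fold lower. The remaining genes of these 8, Csa1G589710 and Csa7G336450, are described with the largest folds and with the neighbouring pairs.

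The rule let in genes of very different firmness. For 92 of the 196 genes every WT library was at least 2 times every rl library. For the other 104 the means were at least 2-fold apart, but not every WT library was that far above every rl library. In 25 genes the libraries agreed within 1.25-fold in both genotypes. These 25 were 2.02-fold to 7.15-fold lower in rl, with a median of 2.64. The largest of these folds belonged to Csa6G434390, with 7.09 and 7.02 CPM in rl and 56.0 and 44.8 CPM in WT. Second was Csa2G368900, named after its values were seen, with 3.43 and 2.93 CPM in rl and 15.4 and 15.9 CPM in WT, or 4.92-fold. At the 2-fold limit, Csa3G739570 (2.006) and Csa3G115050 (2.007) were just inside, while Csa3G199550 (1.999) and Csa4G001810 (1.992) were just outside.

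The share of genes chosen was larger among genes with fewer reads in WT. It was 2.87% of the genes from 5 to under 10 CPM (53 of 1844), 1.37% from 10 to under 50 CPM (99 of 7238), 0.872% from 50 to under 100 CPM (26 of 2982) and 0.695% at 100 CPM or more (18 of 2590). The median fold in these classes was 3.03, 2.87, 2.69 and 3.19. The rule cuts every class at 2-fold, so nothing is read from the likeness of these medians. The weakest covered gene had 182 reads over both WT libraries.

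The rule used the values of both WT libraries but not their order, and this order was one-sided among the chosen genes. A gene with 1 high WT library passes a limit on the mean more easily, so the shares below are not independent of the choice. WT replicate 1 read higher than WT replicate 2 for 160 of the 196 genes (81.6%), against 45.0% of the 14458 other genes with at least 5 CPM in WT. The median log2 ratio of WT replicate 1 to WT replicate 2 was 0.37 over the 196 genes and -0.03 over the others. Among the 92 genes with every WT library at least 2 times every rl library the share was 82.6% (76 genes), and among the 25 genes with close libraries it was 20 of 25. The WT libraries were at least 2-fold apart for 42 of the 196 genes (21.4%), and 40 of these 42 were higher in replicate 1. Of all genes with 5 CPM or more in WT, 1.70% (249) were so far apart, and their order was not counted. Among 12 unchosen genes that met the level and 2-fold limits but overlapped, 11 were also higher in WT replicate 1. The 40 of 42 is thus not read as particular to the chosen genes. The rl libraries were at least 2-fold apart for 38 of the 196 genes (19.4%), against 3.99% of all genes with 5 CPM or more in WT. These shares were not matched for level, and the median rl mean of the 196 genes was 5.90 CPM. The rule also acts on means of 2 libraries, which lets in variable genes, so the wider spread is not read as a trait of these genes.

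The order of the rl libraries was less one-sided. The share of genes higher in rl replicate 1 than in rl replicate 2 was 40.3% (79 of 196), against 46.1% of the other genes. The genes raised in rl under the mirrored rule were higher in WT replicate 1 in 36.9% of cases (52 of 141). With only WT replicate 1 set against the rl mean, 189 of the 196 genes were at least 2-fold lower in rl. With only WT replicate 2 it was 149 of 196. The rule fixes that all 196 are lower than either WT library. The median log2 ratios were -1.82 (rl replicate 1) and -1.71 (rl replicate 2) to WT replicate 1, and -1.40 (rl replicate 1) and -1.25 (rl replicate 2) to WT replicate 2. The part of WT replicate 1 in the reductions was not tested beyond these values, and none of these shares carries a p, since each compares single libraries.

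**Figure D3:**
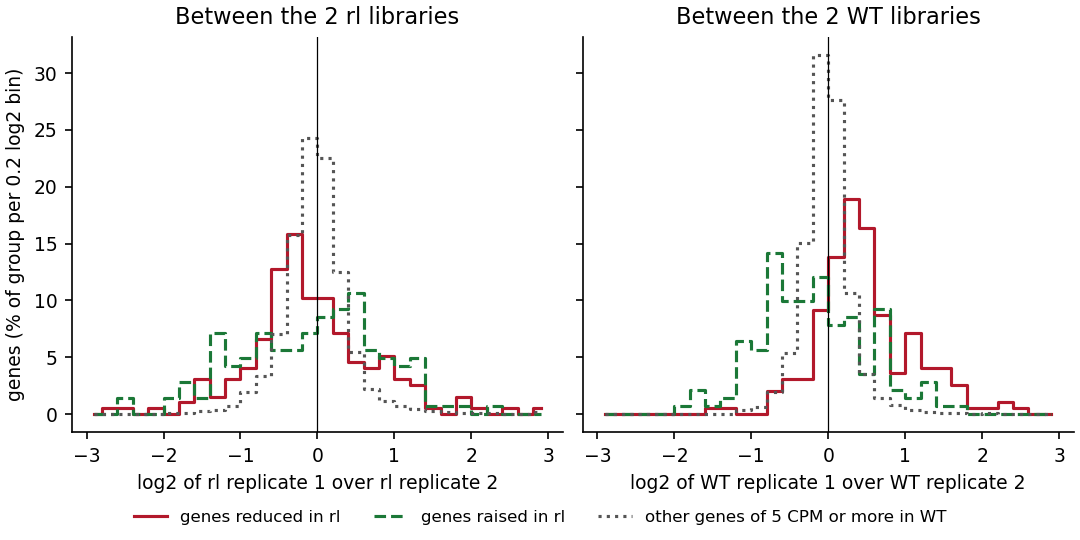
Distribution of the log2 ratio of replicate 1 to replicate 2 within rl (left) and within WT (right) for the 196 genes reduced in rl, the 141 genes raised in rl and the other genes with at least 5 CPM in WT (the raised ones among them included), as the percentage of each group per bin of 0.2, with values beyond 3 drawn at 3. Within WT the reduced genes are shifted to the right, with 81.6% above 0, against 45.0% of the other genes.

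Some of the reduced genes had neighbouring identifiers. Cucumber identifiers of this form give the chromosome as their first digit and are usually numbered in steps of 10 along it, so numbers at most 30 apart were taken as neighbours. This gave 11 pairs, holding 22 of the 196 genes (11.2%), and no run of 3 or more. Of the 14458 genes with at least 5 CPM that were not chosen, 3.51% (508) had one of the 196 as a neighbour. Pairs were found on chromosomes 1, 2, 3, 5, 6 and 7. The number of genes in pairs depends on the rule, and was 8 with every WT library at least 2 times every rl library and 47 without rl replicate 2.

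Csa3G127770, described above, lies next to Csa3G127760, which read 61.5 and 74.8 CPM in rl and 148 and 166 CPM in WT, 2.30-fold lower. The genes of this pair thus fell by very different amounts, and their WT libraries were in opposite order. Csa7G336450 read 90.0 and 96.8 CPM in rl, against 272 and 221 CPM in WT, 2.64-fold lower. Its neighbour Csa7G336480 read 22.2 and 31.9 CPM in rl, against 97.2 and 84.3 CPM in WT, 3.35-fold lower. The WT libraries agreed within 1.25-fold for both genes of this pair, and no listed gene lay between them.

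Csa1G050220 read 4.96 and 3.70 CPM in rl and 10.004 and 27.9 CPM in WT, 4.37-fold lower. The next identifier, Csa1G050230, read 43.2 and 19.5 CPM in rl and 99.99 and 108 CPM in WT, 3.32-fold lower. In this pair WT replicate 2 was the higher WT library for both genes, the reverse of the usual order. Csa5G603910 read 21.6 and 27.6 CPM in rl and 48.4 and 52.8 CPM in WT, 2.06-fold lower. Csa5G603940 read 19.8 and 21.8 CPM in rl and 94.99 and 45.6 CPM in WT, 3.38-fold lower. The listed genes between them had folds of 1.07 and 1.35.

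The other 7 pairs had fewer reads. Csa1G077140, nearly missing from rl, lies 20 from Csa1G077120, which read 5.67 and 6.19 CPM in rl and 20.9 and 17.2 CPM in WT, 3.21-fold lower. Next to this pair, Csa1G077150 was below the level limit of the rule: it read 0.872 and 0.884 CPM in rl and 3.09 and 2.96 CPM in WT, 3.45-fold lower, while Csa1G077130 between them was at 1.12-fold. Csa3G889770 was 6.18-fold lower (4.91 and 5.91 CPM in rl, 40.9 and 26.0 CPM in WT), and its neighbour Csa3G889750 was 3.59-fold lower (0.709 and 3.81 CPM in rl, 9.55 and 6.67 CPM in WT). Csa2G382440 was 9.02-fold lower (2.83 and 3.65 CPM in rl, 35.4 and 23.1 CPM in WT), and Csa2G382470 was 3.28-fold lower (5.72 and 5.19 CPM in rl, 26.3 and 9.52 CPM in WT).

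The remaining pairs had folds between 2.23 and 5.26. They were Csa6G504650 (3.62-fold) with Csa6G504660 (3.03-fold), Csa3G774730 (2.65-fold) with Csa3G774740 (3.50-fold), Csa3G149980 (2.23-fold) with Csa3G150000 (2.56-fold), and Csa7G452290 (5.26-fold) with Csa7G452320 (2.80-fold). In 5 of the 11 pairs the folds were within 1.5 times of each other. In 8 of the 11 pairs both genes had the same order of WT libraries, and in 7 they had the same order of rl libraries. Among all chosen genes 81.6% were higher in WT replicate 1 and 40.3% were higher in rl replicate 1. Chosen genes that are not neighbours would thus often share an order too. Nothing about neighbours is read from these counts, which were not tested.

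Of the 66 listed genes that flank the pairs, 3 on each side, only Csa1G077150 was at least 2-fold lower in rl, 0 were at least 2-fold higher, and 59 were within 1.5-fold of WT. The flanks were taken by order in the list, and some lay far from their pair. Csa7G330400 was at -6050 and Csa3G769690 at -5040 from the first gene of the pair. Since no run of 3 or more was found, no flank within 30 of a pair could meet the whole rule. The flanks therefore do not show where a reduction ends along a chromosome. The 7 listed genes between members of a pair had folds from 0.916 to 1.35. Over all 508 unchosen neighbours, both rl values lay below both WT values for 22.2% (113), against 21.0% of all unchosen genes with at least 5 CPM and 21.3% of all listed genes. The median log2 ratio (rl over WT) was -0.02 for the 508 and -0.01 for all unchosen genes. Whether neighbouring genes are copies of each other that share reads was not tested, since no sequence was used here.

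**Figure D4:**
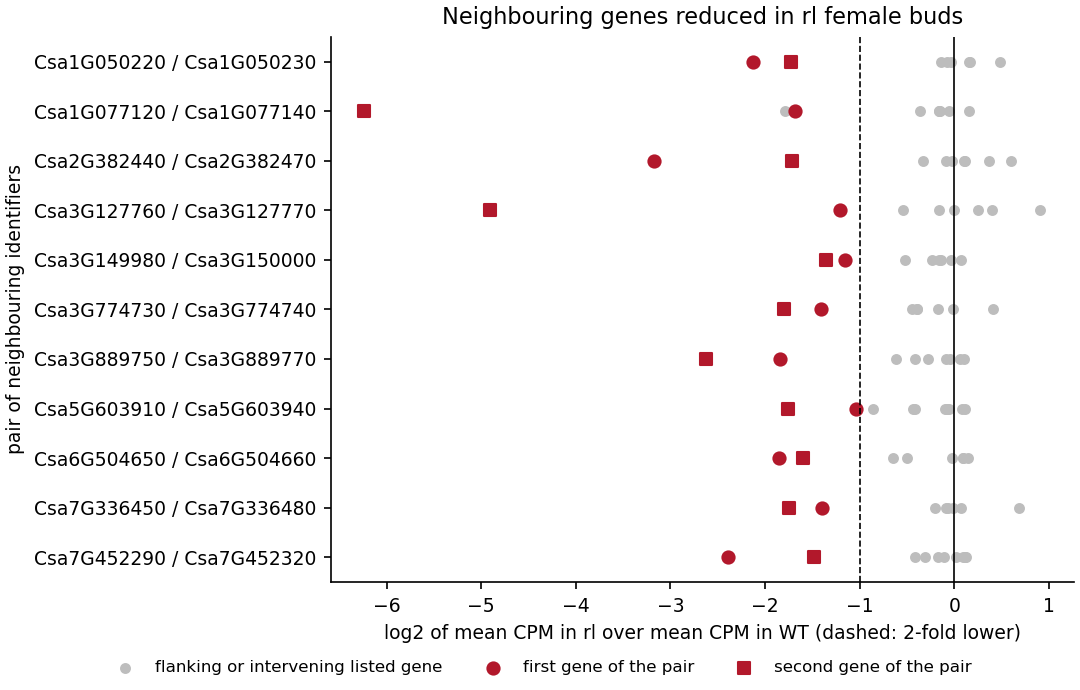
Log2 of mean CPM in rl over mean CPM in WT (horizontal) for each of the 11 pairs of neighbouring reduced genes, with the first gene of a pair as a red circle, the second as a red square, and the listed genes between them and the 3 on each side in grey. The red points lie left of the dashed line of a 2-fold reduction by construction, and of the grey points only Csa1G077150, the next listed gene after Csa1G077140, lies there too.

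By chromosome, the chosen share of genes with at least 5 CPM in WT was highest on chromosome 3, at 1.72% (53 of 3079), and lowest on chromosome 4, at 0.848% (15 of 1768). Chromosome 1 followed with 1.56% (33 of 2111) and chromosome 6 with 1.37% (34 of 2484). Of the 13 genes at least 10-fold lower in rl, 6 were on chromosome 1 and 5 on chromosome 3. The chromosomes were not compared by a test.

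In the fit across all genes, 5 of the 196 genes were called lower in rl by limma at an adjusted p below 0.05, as were 0.0286% of all 17480 genes. These were Csa6G526550, Csa3G127770, Csa1G629020, Csa3G874350 and Csa6G434390. Their differences (rl minus WT, log2(CPM + 1) scale, with SE) were -4.90 (0.27), -4.63 (0.20), -3.94 (0.26), -3.80 (0.22) and -2.67 (0.18). edgeR on the recovered reads called 5 of the 196 (0.0286% of all genes). DESeq2 called 136 of the 196 lower, and 192 of all genes (1.10%). Because the genes were chosen on this contrast, nothing is read from these shares. Without WT replicate 1 limma called 0 of the 196 (0% of all genes), with 153 of them lower at an unadjusted p below 0.05, as were 1.77% of all genes. Without WT replicate 2 it called 3 (0.0172%), without rl replicate 1 it called 20 (0.160%) and without rl replicate 2 it called 58 (0.378%). In those fits the spread was taken from the complete pair and applied to the lone library.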

How the data were processed

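Female buds of rl and WT cucumber (2 libraries each, grouped by their titles) were profiled by RNA sequencing (Illumina HiSeq, per the labels' protocols). HISAT (spliced alignment) and HTSeq (counting) were used, per the submitters' processing notes; their versions, the build, annotation and strand setting are not stated in these sources, so overlapping or near-identical genes cannot be recognised. The authors deposited CPM values, each column summing to 1000000. Dividing by the smallest value above 0 (0.0545 to 0.0570 CPM by library) gave whole numbers for 100% of values to within 1e-06, so reads were recovered; 3 reads correspond to 0.164 to 0.171 CPM.

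The genes and lists were chosen with earlier results of these data known. Python 3.11.15 (pandas 2.3.3, scipy 1.17.1) applied the selection rule. limma 3.58.1 (R 4.3.3) with a mean-variance trend was fitted on log2(CPM + 1) to all genes with at least 1 CPM in 2 libraries, two-sided, genotype as the only term, Benjamini-Hochberg adjustment at 0.05; this scale understates the change of low genes. edgeR 4.0.16 (quasi-likelihood, TMM) called 5 genes in all and DESeq2 1.42.0 called 291, both on recovered reads. All were tested on simulated data. Named were genes called by limma, the 8 with the largest fold (rl floored at 3 reads per library), the 8 with most WT reads, the 4 neighbouring pairs with most WT reads, and the genes at the 2-fold limit; the other 7 pairs were added because neighbouring identifiers were of interest. Lists by function or tissue could not be formed. Alternatives were other pseudocounts, filters, scalings, limits, a replicate block and leaving out each library.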

Additional observations from a re-analysis of the deposited data

How the results depend on the processing

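The number of reduced genes (196) was 143 with at least 10 CPM in WT and 193 after rescaling by the median of ratios. It was 334 with at least 1 CPM, 459 at 1.5-fold, 93 at 3-fold, 92 with every WT library at least 2 times every rl library, and 159 to 314 when each library was left out. Without WT replicate 1, 142 of the 196 were still chosen, and the mirrored rule gave 199 raised genes against 159 reduced, so the excess of reduced genes (196 against 141) did not hold; nor did it without rl replicate 2 (312 reduced, 323 raised) or at 1.5-fold (459 reduced, 492 raised). The excess stayed at 1 CPM (334 reduced, 250 raised), 10 CPM (143 reduced, 94 raised) and 3-fold (93 reduced, 38 raised). It also stayed after rescaling (193 reduced, 147 raised) and with every WT library at least 2 times every rl library (92 reduced, 31 raised). Without WT replicate 2 or without rl replicate 1, reduced genes were again the more numerous. The genes in neighbouring pairs (22) numbered 22 after rescaling and 18 when the next listed identifier was used. They numbered 55 at 1 CPM, 14 at 10 CPM, 73 at 1.5-fold, 10 at 3-fold, 8 with every WT library at least 2 times every rl library, 8 with numbers exactly 10 apart, and 18 to 47 when each library was left out.

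limma's calls (5 of all genes, 5 of the 196) were 5 and 5 with pseudocounts of 0.25 and 5 and with 5 CPM in 2 libraries (which left 176 of the 196). They were also 5 and 5 after rescaling and with edgeR. The setting without a filter repeats the main fit, since all 17480 listed genes passed the filter, and is no check. DESeq2 gave 291 and 136; the cause was not tested. Leaving out each library gave 0 to 125 genes and 0 to 58 of the 196. The replicate block gave 117 genes and 74 of the 196 (0.486% of all genes were called lower with it). Replicate numbers are not stated to pair libraries; across genes, replicate 1 minus replicate 2 in rl and in WT had a correlation of 0.18 over 2 pairs. The 26 genes named by rule kept their direction in 311 of 311 combinations of gene and alternative setting, as the absence of overlap largely fixes. The settings share the same libraries and are not separate checks. At this depth 3 reads are 0.164 to 0.171 CPM, which limits the folds of genes nearly missing from rl.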

Other observations

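A further 12 genes met the level and the 2-fold limit but had overlapping genotypes, with folds from 2.02 to 3.37. A 2-fold limit on the means together with overlap fixes that 1 WT library is the highest and the other lies inside or below the rl range. Which WT library it was is not fixed, and in 11 of these 12 WT replicate 1 was the highest. In all 12 rl replicate 1 was higher than rl replicate 2. The most read of them, CsaUNG030420 on no placed chromosome, read 813 and 424 CPM in rl and 2580 and 368 CPM in WT, 2.38-fold lower by the means. Csa4G243390 read 556 and 280.0 CPM in rl and 1604 and 240 CPM in WT, 2.20-fold lower by the means. The exception was Csa3G837560, with 5.01 and 2.04 CPM in rl and 4.38 and 11.7 CPM in WT, where WT replicate 2 was the higher. These genes were named after their values were seen, and no test was run on them.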
